A study of Mus musculus with 2 samples.

Results

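The miR-379 to miR-410 cluster is a run of miRNA hairpins on mouse chromosome 12, read from the maternal chromosome only. Its members were taken by position alone: every row of the count tables whose gene is annotated as a miRNA on the plus strand between 109709060 and 109747960 (assembly GRCm38, the same as mm10), from Mir379 to Mir3072. The rule found 34 loci of the 1973 in the tables. They were counted in small RNA libraries of the forebrain of B6NCrl mice on postnatal day 0. All samples form 1 group: 2 libraries, each made from a single forebrain, that of pup 1 and that of pup 3. No treatment, genotype or other age was compared. The labels list 1 donor for the pups and give no sex. P-values below therefore measure the reads of these libraries, not a spread between independent animals of a condition. Results are therefore levels, their spread between the pups (mean ± SD, n = 2 throughout), and differences between these libraries.

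MicroRNAs are cut from hairpins and guide Argonaute proteins to messenger RNAs, mainly through the seed, bases 2 to 8 of the mature strand. Either arm of a hairpin, 5p or 3p, can give a mature miRNA. The cluster lies at the distal end of the Dlk1-Dio3 imprinted domain, where the paternal chromosome makes the protein-coding transcripts and the maternal one the noncoding RNAs Meg3, Rian and Mirg with their miRNAs and snoRNAs. It is found in placental mammals, is expressed in embryo and placenta and later mainly in brain, and is induced in neurons by the factor Mef2. Mice that lack it can die soon after birth with a failure to hold blood glucose, and survivors differ in anxiety and social behaviour. Among its members, miR-134 is known to limit dendritic spine size through Limk1, miR-485 acts on presynaptic proteins, miR-329 and miR-381 take part in dendrite growth, and miR-369, miR-496 and miR-543 repress N-cadherin in the developing cortex.

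RefSeq mature sequences (GRCm38.p6) matched 33 of the 34 members, though not both arms of each. Those below belong to the most abundant members described next and are shown 5′ to 3′ with the seed in capitals. The deposited counts are per hairpin and do not tell its arms apart.
miR-487b-5p: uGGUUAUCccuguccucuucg
miR-369-5p: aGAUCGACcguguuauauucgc
miR-369-3p: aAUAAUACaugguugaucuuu
miR-411-5p: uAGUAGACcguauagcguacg
miR-411-3p: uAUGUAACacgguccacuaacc
miR-382-5p: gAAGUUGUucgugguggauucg
miR-381-3p: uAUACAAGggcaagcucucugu
miR-541-5p: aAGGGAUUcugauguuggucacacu
miR-379-5p: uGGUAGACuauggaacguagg
miR-379-3p: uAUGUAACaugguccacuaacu
miR-154-5p: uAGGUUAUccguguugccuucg
miR-134-5p: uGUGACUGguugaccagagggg

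The libraries held 2742746 (pup 1) and 2427066 (pup 3) counts on the gene strand of miRNA loci. Brain markers were present in both: Mir137 held 28264 and 23308 CPM (counts scaled to a total of 1000000) and Mir128-1 10765 and 11337, and all 13 brain loci with a row together held 5.31% and 4.89%. The 3 Mir124a copies and Mir9-2 stood at under 10 CPM in each pup. Reads that map to several places, 42.2% and 44.1% of all reads, are at no locus. Counts at loci with several copies, these and some of the muscle loci among them, can therefore understate the miRNA. Of other cell types, muscle markers held 0.00252% and 0.00490% (4 of 8 loci at 0 in both pups), the liver marker 0.00481% and 0.00630%, red blood cell markers 0.00882% and 0.00713%, and white blood cell markers 0.0328% and 0.0355%. Ependyma and choroid plexus markers held 1.11% and 0.720%, and epithelium markers 0.493% and 1.06%, so these moved between the pups. Of the 7 epithelium loci, 5 passed as higher in pup 3 in the test with library totals described below. Mir203, with 1225 CPM in each pup, and Mir205, with 27.7 and 21.0 CPM, did not pass. The part of these other cell types in the values below was not tested.

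The cluster was broadly active and held a large share of the libraries. A level of 10 counts or more in each pup, called detected here, was reached by 30 of its 34 loci (88.2%), against 16.8% of all 1973 loci. Of the miRNAs nearer to Meg3 and Rtl1, taken up below, 78.9% reached it. So did 76.9% of the brain loci and 25% of the muscle loci with a row, and both lists hold copies that the limit above concerns. Together the 34 loci held 7.22% of the counts in pup 1 (198117 counts) and 5.22% in pup 3 (126614 counts), a mean of 6.22% ± 1.42. Exact Clopper-Pearson limits at 95% were 7.19 and 7.25% in pup 1, and 5.19 and 5.24% in pup 3. Intervals cover counting error only, since PCR copies count as separate reads. The pups lay 1.38-fold apart, far beyond these intervals. In shares from bulk tissue, fewer cells that express the cluster, less RNA per cell and more counts at other loci cannot be told apart. Mir487b, the highest locus, set much of the level: the other 33 members held 4.12% and 3.05%.

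Levels within the cluster ran over 3 orders of magnitude although the loci lie side by side. Mean levels of the 30 detected members went from 22.6 CPM (Mir544) to 26346 CPM (Mir487b), a 1164-fold range (10.19 on the log2 scale). By mean level, 9 members stood over 1000 CPM, 15 between 100 and 1000, and 6 detected ones under 100. The median of the detected members was 308 CPM, beside 232 CPM over all 331 detected loci of the libraries. Their coefficient of variation between the pups had a median of 25.8%, beside 18.1% over all detected loci. Small RNA ligation is known to favour some sequences, and its part in the order of the loci was not tested.

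**Figure D1:**
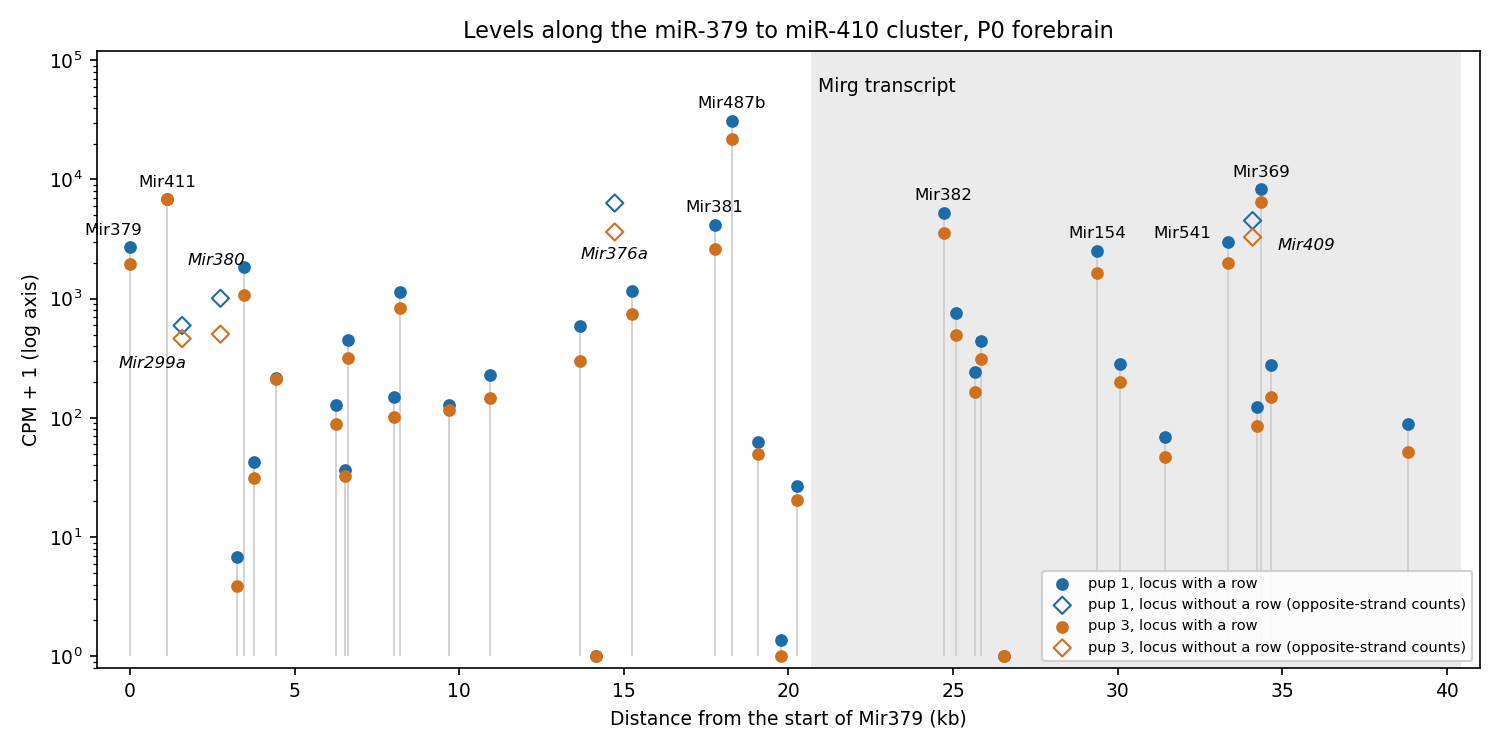
Level of each cluster locus (CPM + 1, log axis) against its distance from the start of Mir379 in kb, for pup 1 (blue) and pup 3 (orange). Filled circles are the 34 loci with a row of their own, open diamonds 4 loci counted only on the opposite strand of an overlapping row, and the grey area is the Mirg transcript. High and low loci alternate along the whole cluster, and Mir487b stands over all others in both pups.

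Mir487b (ENSMUSG00000076219.1, 109727333 to 109727414) had 31054 CPM in pup 1 and 21639 CPM in pup 3 (mean 26346 ± 6657), rank 7 of all loci by gene-strand counts. It was the only member among the 20 highest loci of the libraries, and 11 members were among the highest 100. Mir369 (109743418 to 109743496), one of the N-cadherin miRNAs, had 8230 and 6421 CPM. Mir411 (109710175 to 109710256) had 6821 and 6846 CPM, with an SD of only 17.3 CPM. That SD holds for library totals: with the DESeq2 size factors used below, the log2 ratio of Mir411, pup 3 over pup 1, was 0.32. These 3 members stood over all the others in each pup, and Mir369 and Mir411 changed places between pups.

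Mir382 (109733771 to 109733846) had 5274 and 3520 CPM, and Mir381 (109726822 to 109726896), of dendrite growth, 4175 and 2604 CPM. Mir541 had 2981 and 1991 CPM, Mir379, the first locus of the cluster, 2689 and 1958 CPM, and Mir154 2523 and 1629 CPM. The last 3 kept this order within each pup, though the exact intervals of Mir541 and Mir379 overlapped in pup 3. Their means (2486 ± 700, 2324 ± 517 and 2076 ± 633 CPM) were closer than their SDs, which hold a fall in pup 3 common to all 3. Mir323 followed with 1854 and 1079 CPM.

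Mir543, another of the N-cadherin miRNAs, had 1137 and 838 CPM, and Mir300 had 1168 and 743 CPM, means that do not differ beyond their spread. Mir134 (109734139 to 109734209), the dendritic spine miRNA, had 757 and 492 CPM, a mean of 624 ± 188. Mir485, the presynaptic one, had 443 and 308 CPM. The N-cadherin miRNA Mir496a had 281 and 201 CPM, and Mir329 214 and 211 CPM. Mir543, Mir134, Mir485, Mir496a and Mir329 stood at places 10, 12, 15, 16 and 17 of the 34 members, below Mir369 and Mir381 at places 2 and 5. The SDs of Mir496a (241 ± 56.9 CPM) and Mir329 (212 ± 2.17 CPM) show that their order is within the spread between pups.

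The other detected members lay in the middle and low range. Mir376c had 587 and 298 CPM, the widest relative spread of a detected member (coefficient of variation 46.2%), and Mir1193 450 and 315 CPM. Mir410, which is also known from insulin secretion in the pancreas, had 275 and 149 CPM. Mir668, Mir667, Mir666, Mir495, Mir494 and Mir412 had means from 104 CPM (Mir412) to 203 CPM (Mir668). The 6 detected members under 100 CPM were Mir3072 (68.9 CPM in the mean), Mir377 (56.6), Mir539 (55.3), Mir758 (36.0), Mir679 (33.7) and Mir544 (22.6), the last with 71 and 47 counts.

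The 4 loci that were not detected were Mir654, Mir453, Gm27379 and Mir1197. Mir654 and Mir453 had no count in either pup, which allows up to 1.09 CPM in pup 1 and 1.24 CPM in pup 3 (3 counts). Gm27379 had 1 count and 0. Mir1197 had 16 counts in pup 1 and 7 in pup 3. Each lies between detected neighbours: 71 bp separate Mir1197 from Mir323, which had 5084 and 2618 counts.

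The make-up of the cluster was alike in the pups, and it does not depend on how the libraries are scaled. Mir487b held 43.0% of the cluster's counts in pup 1 (42.8 to 43.2%) and 41.5% in pup 3 (41.2 to 41.8%). The 3 highest members held 63.8% and 66.9% of it (65.4% ± 2.18), 9 members held 90% in each pup, and 21 held 99%. Across the 34 loci, Pearson's r of log2(CPM + 1) between pups was 0.998 and Spearman's rho 0.994. The points are loci of the same libraries, not independent samples.

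Some members still took another share of the cluster. The exact intervals of the pups, which cover counting error only, did not overlap for 14 of the 34 members. The share was higher in pup 3 for 4 of them and lower for 10, Mir487b included. Such shares are not defined for loci outside the cluster, so no background stands beside this count. Mir411 went from 9.44% (9.31 to 9.57%) in pup 1 to 13.1% (12.9 to 13.3%) in pup 3, the widest shift in percentage points. Mir369 went from 11.4% to 12.3%, Mir329 from 0.296% to 0.404% and Mir495 from 0.176% to 0.221%. On the other side, among the 10, Mir381 went from 5.78% to 4.99%, Mir323 from 2.57% to 2.07%, Mir376c from 0.812% to 0.571% and Mir410 from 0.380% to 0.285%. Mir379, the immediate neighbour of Mir411, held 3.72% and 3.75%, with intervals that overlap.

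**Figure D2:**
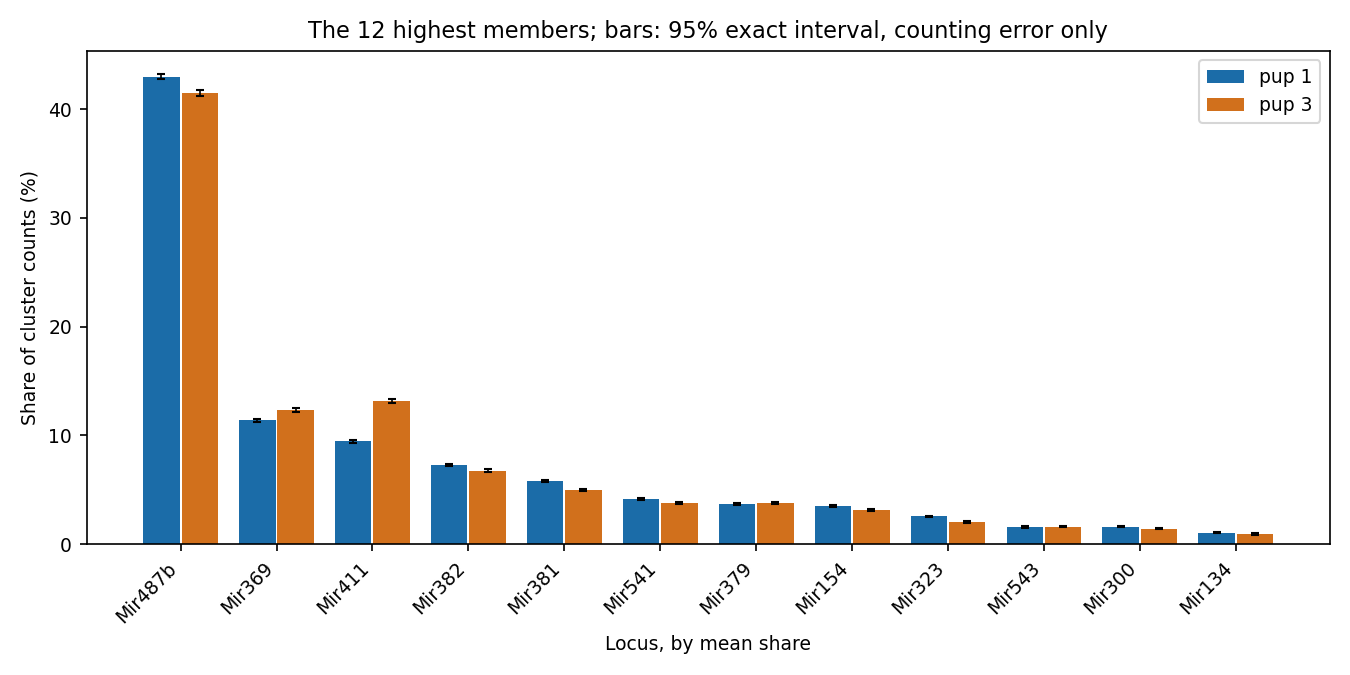
Share of the cluster's counts (%) held by its 12 highest members in pup 1 (blue) and pup 3 (orange), with error bars for the 95% exact interval, which covers counting error only. Mir487b holds 43.0% and 41.5%, and Mir411 passes Mir369 in pup 3.

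Position did not order the levels. The 34 loci span 38.9 kb, with gaps of 20 to 4368 bp to the next and a median of 644 bp. Spearman's rho of log2 level with position was 0.00 over the 34 loci and −0.03 over the 30 detected, given as descriptions over loci that share the libraries. Neighbouring detected members differed by a median of 2.46 on the log2 scale, and all pairs of detected members by 2.61. The first 21 loci lie before the annotated transcript Mirg, with no annotated host on their strand, and held 5.09% and 3.71% of the counts. The last 13, within Mirg, held 2.13% and 1.51%, with 12 of 13 detected. Of these 13, 4 lie wholly in an exon of at least 1 Mirg isoform (Mir134, Mir485, Mir377 and Mir410), 5 overlap an exon in part (Mir382, Mir668, Mir412, Mir369 and Mir3072) and 4 lie in introns (Mir453, Mir154, Mir496a and Mir541). The exonic loci ran from 56.6 CPM (Mir377) to 624 CPM (Mir134), and those that overlap an exon in part from 68.9 CPM (Mir3072) to 7325 CPM (Mir369). Of the intronic loci, Mir541 and Mir154 stood over 1000 CPM, Mir496a had 241 CPM and Mir453 had no count. The GC content of the hairpins ran from 29.1% (Mir376c) to 72.3% (Mir3072), with a median of 45.3%, beside 50.8% over all 2202 annotated miRNA hairpins. Over the 30 detected members its rho with log2 level was −0.18, and that of folding energy per nucleotide 0.12.

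The members have mostly different seeds. The 61 mature sequences at hand carry 56 seeds. They hold only 1 arm of Mir487b, Mir376c, Mir485 and Mir539, so seeds of the other arm are not counted. With the 5 loci that have no matched row counted in, 6 seeds occur in more than 1 of the sequences at hand. These pairs are shown because the seed is the main part of a miRNA that pairs with its targets.
miR-379-5p: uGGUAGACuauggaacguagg
miR-1193-5p: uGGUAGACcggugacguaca
miR-379-3p: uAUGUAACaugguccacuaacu
miR-411-3p: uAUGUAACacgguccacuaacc
miR-410-5p: aGGUUGUCugugaugaguucg
miR-494-5p: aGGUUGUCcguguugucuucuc
miR-758-5p: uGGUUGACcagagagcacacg
miR-1197-5p: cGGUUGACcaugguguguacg
miR-496a-5p: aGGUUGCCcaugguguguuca
miR-453: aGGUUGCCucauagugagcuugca
miR-376c-5p: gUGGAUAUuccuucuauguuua
miR-376b-5p: gUGGAUAUuccuucuaugguua

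Loci that share a seed often stood far apart in hairpin level, which does not tell the arm with the seed from the other arm. Mir379 had 2324 ± 517 CPM and Mir1193, which carries the same 5p seed, 382 ± 95 CPM. Mir379 and Mir411 share the 3p seed, and Mir411 had 6833 CPM in the mean. Mir410 and Mir494 had 212 ± 89.0 and 108 ± 27.4 CPM, Mir758 36.0 ± 7.83 against 4.36 ± 2.09 for Mir1197, and Mir496a 241 ± 56.9 against 0 counts for Mir453. Mir376c had 442 ± 204 CPM, and Mir376b has no matched row.

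Of the other seeds of members, 10 are carried by a miRNA outside the cluster. Here too the levels are of whole hairpins, not of the arm with the seed. That of miR-329-3p (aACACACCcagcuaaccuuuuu) is also that of miR-362-3p, and Mir362, on the X chromosome, had 73.9 ± 21.2 CPM beside 212 ± 2.17 for Mir329. That of miR-410-3p (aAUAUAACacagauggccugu) is shared with miR-344d-3p and miR-344e-3p, whose loci Mir344d-1 and Mir344e had at most 3 counts. That of miR-412-3p is shared with miR-1983, and Mir1983 had 2882 and 2317 CPM, above Mir412 with 123 and 84.9. That of miR-377-5p is shared with miR-672-5p, and Mir672 had 414 and 420 CPM, above Mir377 with 67.5 and 45.7. That of miR-1193-3p is shared with miR-370-5p, of Mir370, which lies nearer to Meg3 in the same imprinted domain and had 1425 ± 459 CPM. Among the 12 highest members, miR-411-5p shares its seed with miR-7229-5p, which has no matched row, and miR-134-3p with miR-3620-5p, whose locus Mir3620 had no count. The loci Mir362, Mir344d-1, Mir344e, Mir1983, Mir672 and Mir370 were picked for mention after their values were seen.

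The hairpins also resemble each other beyond the seed. In global alignments, 35 of the 435 pairs of detected members reached an identity of 65%, and 18 members took part in at least 1 such pair. Mir300 and Mir381, neighbours in the member order, were 73.7% identical, and their 3p strands share a run of 16 nt although their seeds differ.
miR-300-3p: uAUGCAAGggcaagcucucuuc
miR-381-3p: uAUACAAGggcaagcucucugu
miR-543-3p: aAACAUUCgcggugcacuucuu
miR-495-3p: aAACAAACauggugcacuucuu
The second pair, of the neighbours Mir543 and Mir495, shares the last 12 nt of the strand. Alike hairpins were not alike in level: pairs at 65% or more differed by a median of 8.15-fold (1.30 to 245), other pairs by 6.08-fold, and rho between identity and the log2 fold was 0.09 over the 435 pairs, which share loci. Mir381 stood 3.55-fold over Mir300, and Mir411 190-fold over Mir758, at 73.8% identity.

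**Figure D3:**
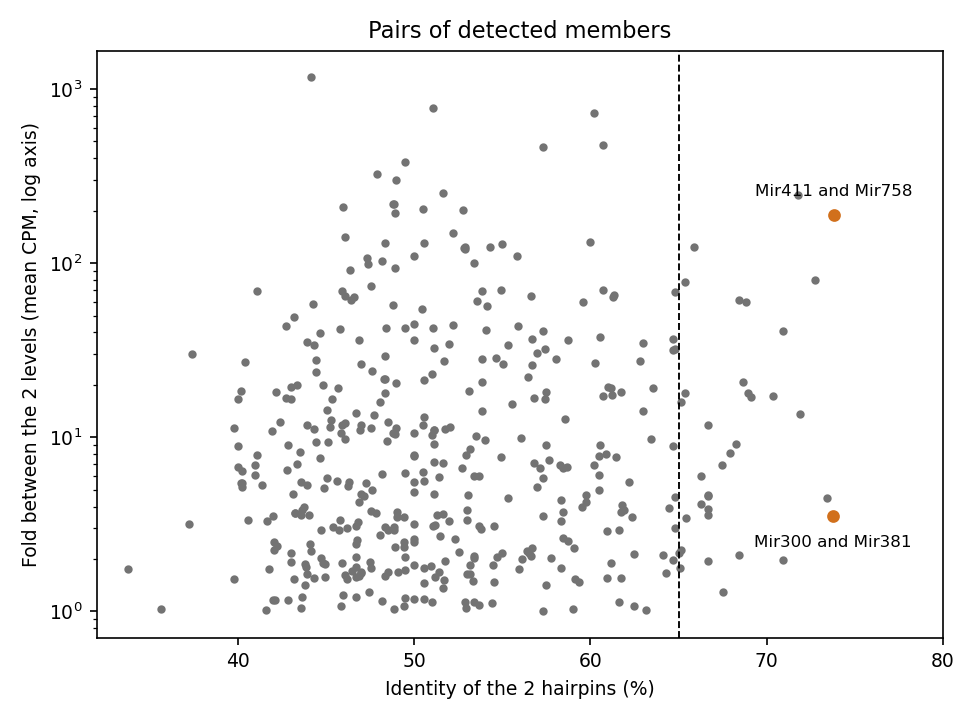
Each point is a pair of detected cluster members, placed by the identity of their hairpins (%) and the fold between their mean levels (log axis), with the line at 65%. The 35 pairs at or over the line differ by 1.30 to 245-fold, with a median of 8.15-fold, and the other pairs by a median of 6.08-fold.

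Reads that map to several places are at no locus, so shared sequence bears on these levels. None of the 61 mature sequences at hand, which lack an arm of some members, Mir487b among them, was found whole in the hairpin of another locus. Runs of at least 20 nt with another annotated hairpin were found in 4 members, Mir411 and Mir758 with each other, and Mir487b and Mir376c with Mir376b. Without these 4, the other 30 held 2.85% ± 0.734 of the counts.

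Most of the cluster was lower in pup 3 than in pup 1. With a single pup on each side, a two-sided Fisher's exact test per locus, adjusted by Benjamini-Hochberg over the 400 loci with 10 or more summed counts, sets library against library. Of 31 members that reached 10 summed counts, 23 were lower in pup 3, none was higher and 8 did not pass, while 46.2% of all tested loci were lower and 10.2% higher. The median log2 ratio (CPM + 1, pup 3 over pup 1) was −0.53 over the members and −0.31 over all tested loci. With DESeq2 size factors and an exact binomial test, which take out that common shift, 18 members were lower and 2 higher, against 20.8% and 24.5% of all tested loci, with a median of −0.22 beside −0.02. With TMM totals 20 were lower and 2 higher, against 26% and 20.5%. These tests cover counting error alone, and there is no replicate check.

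The ratios lay close together. Their interquartile range ran from −0.63 to −0.44, a width of 0.19, against 0.56 over all tested loci. The width was 0.23 over the 15 tested miRNAs nearer to Meg3 and Rtl1, taken up below. It was 0.43 over 5 imprinted miRNAs outside the domain. The lowest were Mir376c (1609 and 723 counts, −0.98, adjusted Fisher's exact p = 2.27e-54), Mir410 (753 and 361 counts, −0.88, adjusted Fisher's exact p = 3.98e-22) and Mir1197, whose −0.82 from 16 and 7 counts did not pass. The highest were Mir411 (18709 and 16615 counts, 0.01), Mir329 (587 and 512 counts, −0.02) and Mir495 (348 and 280 counts, −0.14), none of which passed with library totals. With size factors Mir411 was higher in pup 3, at 0.32, as was Mir329, at 0.29, while Mir495, at 0.17, did not pass. Within Mirg all 12 tested members were lower with library totals (9 with size factors), from −0.88 to −0.36, and before Mirg 11 of 19 (9 with size factors), from −0.98 to 0.01. Whether these stretches differ was not tested. Mir487b had −0.52 with library totals and −0.21 with size factors, and passed with each.

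**Figure D4:**
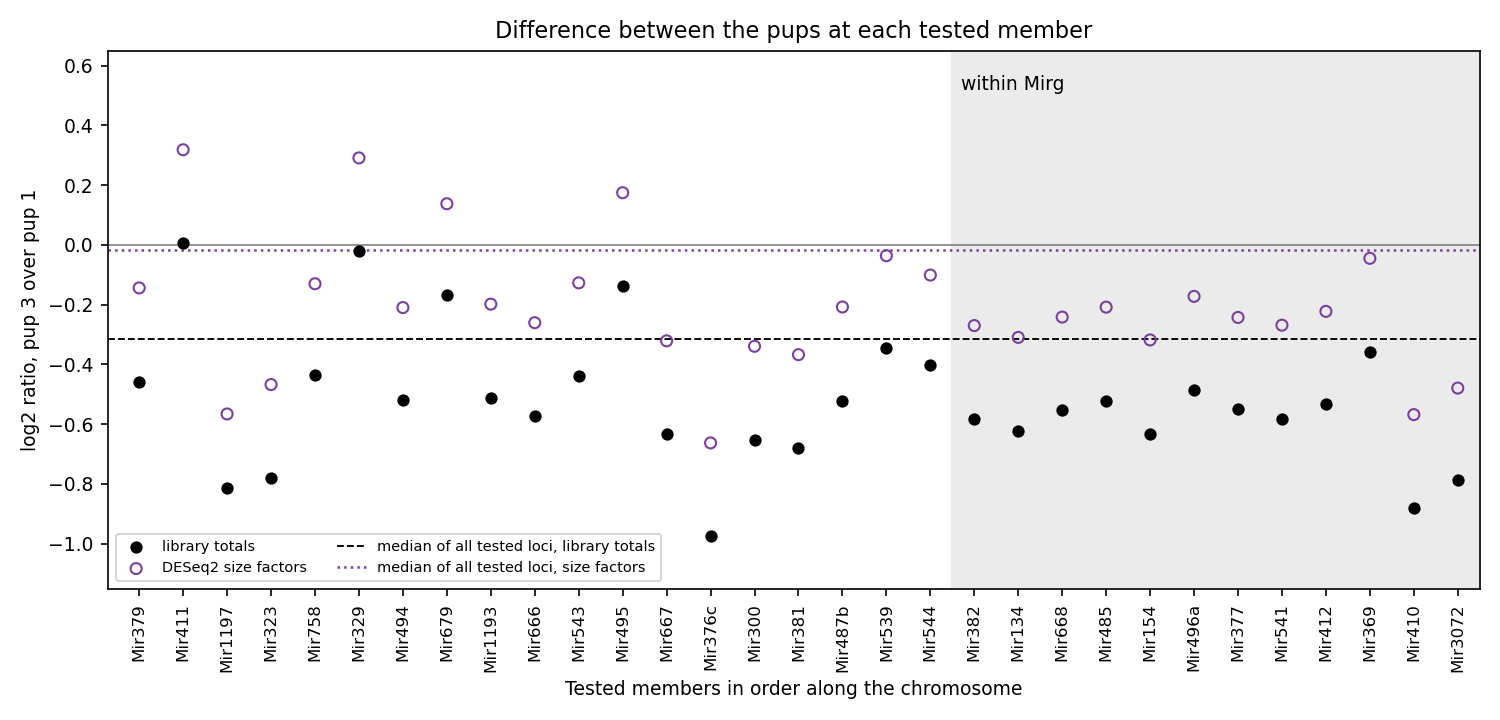
Log2 ratio of pup 3 over pup 1 for the 31 tested members in chromosome order, with library totals (black) and DESeq2 size factors (open purple), and lines at the medians of all 400 tested loci. Most members lie below the line of their scale, while Mir411, Mir329, Mir495 and Mir679 lie above it on both.

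The 34 rows do not hold the whole cluster. The annotation places 39 miRNA loci on the plus strand of the interval. Mir299a, Mir380, Mir376b, Mir376a and Mir409 have no row among the 1894 of 1973 that matched the annotation. Rows that did not match could not be placed. Of these, 4 lie under a row of the minus strand, whose reads on the opposite strand fall where the plus-strand hairpin is. The members' own rows had 0 opposite-strand counts in each pup. The row Gm25252, over Mir376a (109723781 to 109723848), had 17362 and 8793 opposite-strand counts, and 0 on its own strand. Gm24321, over Mir409 (109743158 to 109743236), had 12378 and 7957, and Gm25750, over Mir380 (109711803 to 109711863), 2756 and 1220. Mir299b, whose hairpin lies within Mir299a (109710638 to 109710700), had 1629 and 1118 opposite-strand counts and 2 and 1 on its own strand. By mean level, Mir376a (4977 CPM) would stand between Mir411 and Mir382, and Mir409 (3896 CPM) between Mir382 and Mir381. The miR-376 hairpins are known targets of A-to-I editing in brain, and their sequences are shown with that of miR-409 for this group.
miR-376a-3p: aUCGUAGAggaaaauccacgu
miR-376b-3p: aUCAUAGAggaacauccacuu
miR-409-3p: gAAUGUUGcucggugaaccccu
With these counts added, the cluster comes to 8.47% of the gene-strand total in pup 1 and 6.0% in pup 3. Mir376b lies under no matched row and was not analysed here.

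The miRNAs nearer to Meg3 and Rtl1 in the same domain, listed with earlier results of these data known, also held less in pup 3. Of 23 names 19 had a row, and these held 2.37% and 1.58% of the counts, 1.5-fold apart, where the cluster was 1.38-fold apart. Their median log2 ratio was −0.61 (−0.29 with size factors), and 13 of 15 tested loci were lower and none higher with library totals, against 46.2% and 10.2% of all tested loci. With size factors 11 were lower and 1 higher, against 20.8% and 24.5%. Mir127, which lies antisense to Rtl1, led with 9024 and 5574 CPM, followed by Mir434 with 2986 and 2189 and Mir431 with 2792 and 2054. The highest locus thus held less than Mir487b in each pup. Of imprinted miRNAs outside the domain, Mir335 of Mest had 29990 and 21855 CPM (−0.46), Mir298 2753 and 2696 CPM (−0.03), Mir296 1810 and 996 CPM (−0.86) and Mir483 206 and 201 CPM (−0.03), while Mir675 had 3 and 7 counts (0.89). Mir335 and Mir296 passed as lower and the other 3 did not pass with library totals. With size factors 2 of these 5 were lower and 2 higher, and their median log2 ratio was 0.28, beside −0.03 with library totals. No difference between these lists was tested.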

How the data were processed

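Small RNA libraries from 2 single P0 forebrains were used, with separate pups as replicates. The authors deposited raw read counts per miRNA gene, without normalization, in columns for both strands, the gene strand and the opposite strand, as read from layout and values. Assembly mm10 and annotation M4 are per the labels and the deposited text; the aligner was not given in the sources used here. The first 4 rows name no gene (58.8% and 58.7% of reads, mainly reads that map to several places, 42.2% and 44.1%) and were left out. GENCODE M21 matched 1894 of 1973 rows. Gene-strand counts were scaled to 1e+06 (CPM). For loci at 0 the upper limit was set at 3 counts. The members, lists and tests were chosen with earlier results of these data known. There is no contrast between conditions for a quasi-likelihood fit in edgeR, so loci with 10 or more summed counts were compared between pups by Fisher's exact test, adjusted p under 0.05. Since 46.2% of tested loci were lower and 10.2% higher in pup 3, the libraries are not copies. Counts for 1973 loci were also simulated with counting (Poisson) noise alone. In them, 71.4% of 70 loci changed by 1.5-fold, 76.6% of 64 by 2-fold and 91.7% of 60 by 4-fold were recovered, and 5 of 207 unchanged ones were called. Variation from PCR or between animals was not simulated, so these are not the rates in the real libraries. Full values were given for the 12 highest members, those sharing a seed, those under 10 counts, and the 3 highest and 3 lowest ratios; others were named for known roles or after their values were seen. Alternatives were other columns, totals, scalings, filters, pseudocounts and leaving out a replicate. Tools were Python 3.11.15, scipy 1.17.1, Biopython 1.88, edgeR 4.0.16, DESeq2 1.42.0 and RNAfold 2.7.2.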

Additional observations from a re-analysis of the deposited data

Results flagged for a closer look

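Opposite-strand counts, outside the gene-strand values used above, exceeded the limit that a count of 0 allows at 4 rows that overlap cluster loci without a row. Scaled to the gene-strand total, they came to 4977 ± 1914 CPM over Mir376a, 3896 ± 873 CPM over Mir409, 754 ± 355 CPM over Mir380 and 527 ± 94.3 CPM over Mir299a (mean ± SD, n = 2). All 4 were lower in pup 3, with log2 ratios of −0.80, −0.46, −1.0 and −0.37 (−0.49, −0.15, −0.68 and −0.05 with size factors), which were not tested.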

How the results depend on the processing

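The cluster's share of 6.22% became 8.49% with Mir99a left out of the library totals, 2.85% over the members that share no run and, in a setting added after the data were seen, 3.59% without Mir487b. By pup it ran from 5.22 to 7.22%. The 3 highest members held 53.1% of the counts of members that share no run. The median log2 ratio was −0.28 with TMM totals and −0.22 with size factors. The number of members higher in pup 3, 0 with library totals, was 1 without Mir99a (Mir411) and 2 with TMM totals or size factors. The Spearman correlation of level with position was 0.0545 over members that share no run and −0.0274 over detected ones. Mir329 changed sign, to 0.036 without Mir99a, 0.23 with TMM totals and 0.29 with size factors, and Mir495 to 0.11 and 0.17 with TMM totals and size factors. Of 272 values recomputed, 39 that summarise the cluster and 192 of single members were classed as the same. Ratios of single members had to keep their direction and their side of the threshold. Shares and the position correlation had to move by no more than the spread. Counts of members and the median log2 ratio were allowed a set margin. The 23 members lower in pup 3 thus counted as the same at 20 with TMM totals and 18 with size factors. Part of this outcome was fixed in advance. With 2 pups, the value of either always lies within the SD of their mean. The 24 shares of single members without each replicate, and the shares of the cluster by pup, therefore could not move. The 21 ratios at each other pseudocount keep the same p-values. Leaving out a replicate leaves no ratio between pups, so those tests were not run. No paired analysis was possible because the series has 1 group. Loci under 10 counts are limited by depth.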
